A study of Mus musculus with 12 samples.

Results

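The genes described here were 10 cyclic nucleotide phosphodiesterases of mouse lung other than Pde5a, namely Pde1a, Pde2a, Pde3a, Pde3b, Pde4a, Pde4b, Pde4d, Pde7b, Pde8a and Pde10a. They were taken by gene symbol from a table of 55414 genes, and each symbol was found there once. To examine what loss of B cell-derived IL-10 does to the lung in lipopolysaccharide (LPS)-induced acute lung injury (ALI), the study sequenced whole-lung RNA from 6 IL-10 B-KO mice and 6 control mice, termed IL-10 B-WT, on the fourth day after LPS. LPS, a cell wall component of Gram-negative bacteria, provokes inflammation when it reaches the airways, and no lung without LPS was analysed here. IL-10 B-KO mice carried a floxed Il10 gene on both alleles together with Mb1-Cre, a recombinase expressed from the B cell gene Cd79a, and IL-10 B-WT mice served as their controls. All mice had the C57BL/6J background. Neither the age of the mice nor the exact alleles of the IL-10 B-WT mice was given in the sources used here, and deletion by Mb1-Cre spares Il10 in every cell type outside the B lineage.

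Cyclic nucleotide phosphodiesterases hydrolyse cAMP and cGMP, the second messengers that relax airway and vascular smooth muscle. Cyclic AMP also tightens the endothelial barrier and restrains the activation of leukocytes. Families differ in which nucleotide they prefer and in how they are regulated, so that a cell's set of phosphodiesterases shapes how long and where each messenger acts. PDE4 enzymes are the main cAMP phosphodiesterases of neutrophils and macrophages and the targets of roflumilast, a drug for chronic obstructive pulmonary disease, while PDE3 enzymes act in vascular muscle, heart, platelets and fat. All 10 genes encode the class I catalytic domain according to the protein family annotation in the deposited table, and all 10 are placed there in purine metabolism. The table also lists 6 of them (Pde3a, Pde3b, Pde4a, Pde4b, Pde4d and Pde10a) under cAMP signaling. It places 3 (Pde2a, Pde3a and Pde3b) under signaling by cGMP and its dependent kinase PKG. An upstream conserved region, by which PDE4 enzymes are regulated, is annotated in Pde4a, Pde4b and Pde4d, a GAF domain in 2 (Pde2a and Pde10a) and a PAS domain in 1 (Pde8a).

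The labels were first set against Cd79a, the gene from which Mb1-Cre is expressed, other B cell markers and Il10. A lower Cd79a does not by itself show deletion of Il10. Cd79a, a B cell receptor subunit, lay between 15.3 and 259 TPM (transcripts per 1e6, a length-corrected unit) in control lungs and fell to between 0.00 and 5.73 in IL-10 B-KO, without overlap (log2 fold change -4.16, adjusted p = 0.0222). The call ended with no filter on low genes (adjusted p = 0.0999) and without any of 4 single lungs. It was listed at 0 in replicates 1, 3 and 5 of IL-10 B-KO. All 9 B cell markers had lower means there. Their TPM summed to 86.9, 922.7, 137.4, 85.6, 74.7 and 92.4 in IL-10 B-WT and 19.4, 89.7, 10.9, 8.1, 9.7 and 63.4 in IL-10 B-KO replicates 1 to 6, so that the control mean is carried by replicate 2 and IL-10 B-KO replicate 2 lies above 3 control lungs. Il10 itself stayed below 1 TPM in every lung, with 0.00 to 0.88 in IL-10 B-WT and 0.00 to 0.58 in IL-10 B-KO, and whole-lung RNA therefore offered no check of the deletion. Because means of B cell transcripts were lower in IL-10 B-KO, loss of Il10 and loss of B cell RNA cannot be told apart in the comparisons below. Markers of lung were abundant in each library. Sftpc, the surfactant gene of alveolar type 2 cells, was at 2548 TPM or more, Ager of alveolar type 1 cells at 402 or more, and the endothelial gene Pecam1 at 330 or more. Acta2 of smooth muscle and Col1a1 of fibroblasts reached at least 42.2 and 23.1 TPM.

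Several libraries stood apart. IL-10 B-WT replicate 1 correlated more closely with IL-10 B-KO lungs (mean Pearson r 0.944 across the 15148 genes tested, log2 scale) than with the other IL-10 B-WT lungs (0.879). IL-10 B-KO replicate 2 was likewise nearer to IL-10 B-WT lungs (0.926) than to its own group (0.915). The other 10 libraries were nearer to their own genotype. IL-10 B-WT replicate 5 had the largest share of mitochondrial transcripts (30.5%, against 4.63% to 15.8% elsewhere) and the fewest genes above 0 (21380). IL-10 B-WT replicate 2 had 15.4% of its TPM in immunoglobulin genes, where the other control lungs had 0.248% to 2.19%. All IL-10 B-KO lungs had less than any control lung, from 0.002% to 0.0647%. Phosphodiesterase values that rest on replicate 1 of IL-10 B-WT or replicate 2 of IL-10 B-KO are given below with and without these lungs. Most other genes are given with all lungs only, and genes past the threshold also with single lungs left out. Since both were noticed because they resembled the other genotype, leaving them out pulls the groups apart by construction, and the values without them are a description, not a test.

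Pde4b was the most abundant of the 10 genes in 11 of 12 lungs on the TPM scale, which is corrected for transcript length, and second to Pde4d in IL-10 B-WT replicate 5. In IL-10 B-WT lungs it averaged 37.5 ± 15.2 TPM (SD, n = 6) and was followed by Pde8a with 10.8 ± 3.80, which Pde4b exceeded in 6 of 6 lungs. Pde4d (8.08 ± 7.13), Pde3a (7.37 ± 1.57) and Pde4a (6.58 ± 1.30) came next and did not differ beyond their spread. The place of Pde4d ahead of Pde3a came from 1 lung, since Pde4d exceeded Pde3a in only 1 of 6. Pde4a in turn exceeded Pde7b (2.79 ± 1.38) in 6 of 6 lungs. Pde7b, Pde3b (2.29 ± 0.938), Pde2a (2.24 ± 2.00) and Pde1a (1.88 ± 0.663) could not be ranked, as their neighbours changed places between lungs. Pde10a was lowest, at 0.413 ± 0.372 TPM, below Pde1a in 6 of 6 lungs.

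In IL-10 B-KO lungs Pde4b (54.9 ± 26.2 TPM) and Pde8a (13.8 ± 3.99) again led, each ahead of the next gene in 6 of 6 lungs. Behind them Pde4a (4.62 ± 0.864), Pde3a (4.47 ± 2.12), Pde4d (4.28 ± 1.42) and Pde7b (3.79 ± 0.996) lay within their spread of each other. Pde2a (2.86 ± 1.57), Pde3b (2.61 ± 0.667) and Pde1a (1.80 ± 1.14) followed, and Pde10a was again lowest (0.658 ± 0.717). The 10 genes together summed to 79.8 ± 16.4 TPM in control lungs, against 93.8 ± 30.7 in IL-10 B-KO.

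Differential expression was tested on log2(TPM + 1), which understates the change of low genes, for 15148 genes with at least 1 TPM in at least 6 libraries. Of the 10 phosphodiesterases, 9 entered the test; Pde10a reached 1 TPM in 3 libraries and did not. None of the 9 passed the threshold of the study in limma (adjusted p no greater than 0.05, log2 fold change of 1 or more in either direction, the log2 scale being a reading of a fold of change of 1 whose scale the methods do not state), which 0.495% of all genes tested passed (75 genes, 71 of them lower in IL-10 B-KO and 4 higher). That split depends on the fit, since 81 of 318 such genes were higher with array quality weights. By adjusted p alone, chosen after seeing the data, none of the 9 passed either, beside 0.522% of all genes (79). Without 1 lung that count of 75 became 604 (without IL-10 B-WT replicate 1), 116 (IL-10 B-KO 2), 62 (IL-10 B-WT 2), 59 (IL-10 B-WT 3), 57 (IL-10 B-KO 4), 46 (IL-10 B-KO 6), 38 (IL-10 B-WT 4), 35 (IL-10 B-WT 6), 33 (IL-10 B-KO 3), 23 (IL-10 B-WT 5) or 19 (IL-10 B-KO 1 or IL-10 B-KO 5). At an unadjusted p of at most 0.05 there were 2 phosphodiesterases, Pde3a and Pde4a, both lower in IL-10 B-KO. Over all genes, 12.5% passed that mark in either direction, 5.71% in the lower and 6.83% in the higher direction. None of the 10 had groups that did not overlap, against 1.02% of the genes tested. The median log2 fold change of the 9 was 0.15, beside 0.099 over all genes tested, and centring each library on its median moved the latter to -0.008.

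**Figure D1:**
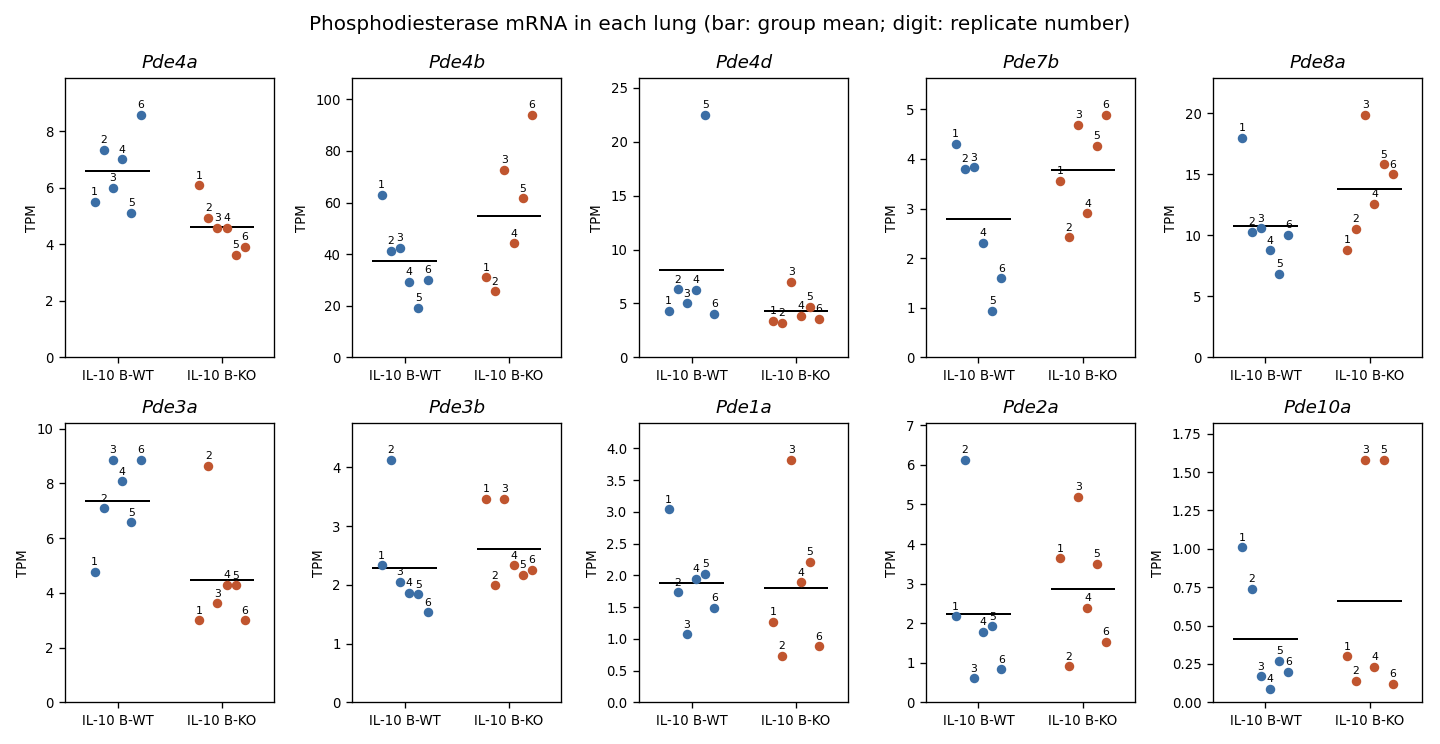
TPM of each phosphodiesterase (vertical axis, linear, from 0, scaled separately per gene) in every lung of IL-10 B-WT (blue) and IL-10 B-KO (orange) mice, with points as lungs marked by replicate number and a horizontal bar at the group mean. In Pde3a, IL-10 B-KO replicate 2 sits at 8.64 TPM among the IL-10 B-WT lungs while the other 5 lie at 4.30 or below, and in Pde4d a single IL-10 B-WT lung reaches 22.5 TPM.

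Among the PDE4 enzymes, which hydrolyse cAMP and not cGMP, Pde4a and Pde4b lay on opposite sides of 0. In IL-10 B-WT replicates 1 to 6, Pde4a measured 5.50, 7.33, 6.0, 7.0, 5.10 and 8.58 TPM, and in IL-10 B-KO replicates 1 to 6 it measured 6.08, 4.93, 4.58, 4.58, 3.63 and 3.90. IL-10 B-KO replicate 1 alone kept the groups overlapping, and the other 5 lay under the lowest control lung. Without it Pde4a has no overlap by construction, so that the 1.17% of all genes without overlap on that removal is no like comparison. The difference was -0.43 ± 0.16 (SE) on the log2 scale, with a 95% interval of -0.78 to -0.08. The two-sided exact permutation test gave p = 0.0108, where 0.00216 is the smallest p that 6 lungs against 6 allow, but limma's adjusted p was 0.33. All 6 IL-10 B-KO lungs were below the IL-10 B-WT median of 6.50 TPM. The gene is ENSMUSG00000032177, at chr9:21165714-21213248 on the plus strand (GRCm38).

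Pde4b, the PDE4 gene most tied to leukocytes and to the response to LPS, spanned 19.1 to 63.0 TPM in IL-10 B-WT lungs with a median of 35.6. In IL-10 B-KO lungs it spanned 25.5 to 94.0 with a median of 53.0. The groups overlapped widely. IL-10 B-WT replicate 1 (63.0) exceeded 4 of the IL-10 B-KO lungs, and the IL-10 B-KO replicates 1 (31.0) and 2 (25.5) lay below the IL-10 B-WT median. The log2 fold change of 0.49 ± 0.34 (95% interval -0.24 to 1.22) came with an exact permutation p of 0.219 and an adjusted p of 0.534. Without the 2 lungs nearer to the other genotype (IL-10 B-KO replicate 2, IL-10 B-WT replicate 1) the log2 fold change was 0.84. Its 95% interval was then 0.19 to 1.5 and limma's adjusted p 0.0797. Left out singly, IL-10 B-KO replicate 6 took the log2 fold change to 0.31 and IL-10 B-WT replicate 5 took it to 0.32. Pde4b, ENSMUSG00000028525, spans chr4:102087543-102607259 on the plus strand.

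Pde4d, the PDE4 gene tied to airway smooth muscle and heart, ranged from 4.03 to 6.31 TPM in 5 control lungs and stood at 22.5 in IL-10 B-WT replicate 5. IL-10 B-KO lungs ranged from 3.23 to 6.99 with a median of 3.71, against 5.64 in IL-10 B-WT. Among IL-10 B-KO lungs, 4 lay under the lowest control value, and replicate 3 exceeded 5 control lungs. The log2 fold change was -0.57 ± 0.34 (exact permutation p = 0.102, adjusted p = 0.478) and shrank to -0.25 without IL-10 B-WT replicate 5. Pde4d (ENSMUSG00000021699, chr13:108449948-109953461, plus strand) has 20 annotated transcripts, and its TPM is a gene total that does not separate them.

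The makeup of PDE4 transcripts differed from lung to lung. Pde4b made up 70.2% ± 15.7 (SD, n = 6) of the summed TPM of Pde4a, Pde4b and Pde4d in IL-10 B-WT lungs, with a low of 40.9% in replicate 5, and 83.9% ± 6.63 in IL-10 B-KO lungs. Pde4c, with means of 0.823 and 0.865 TPM, is not in that sum. The ratio of Pde4b to Pde4a ran from 3.50 to 11.5 in IL-10 B-WT, highest in replicate 1, and from 5.10 to 24.1 in IL-10 B-KO, lowest in replicates 1 and 2. These ratios are given as a description, with no test.

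Pde7b and Pde8a encode cAMP-specific enzymes that rolipram, the prototype PDE4 inhibitor, does not block. Pde8a lay at 6.85 to 18.0 TPM (median 10.2) in IL-10 B-WT and 8.83 to 19.9 (median 13.8) in IL-10 B-KO lungs. Its IL-10 B-WT values clustered at 10.6 or below apart from replicate 1, at 18.0. Pde7b lay at 0.94 to 4.30 TPM (median 3.05) in IL-10 B-WT and 2.42 to 4.89 (median 3.91) in IL-10 B-KO. Both differences, 0.34 ± 0.23 for Pde8a and 0.40 ± 0.26 for Pde7b on the log2 scale, were within the spread between lungs (exact permutation p = 0.173 and 0.175). Without the 2 lungs nearer to the other genotype they were 0.55 and 0.60. Without IL-10 B-WT replicate 5 alone they were 0.23 and 0.22.

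Pde3a, whose enzyme hydrolyses cAMP and is inhibited by cGMP, showed the lowest limma p of the 9. In IL-10 B-WT replicates 1 to 6 it measured 4.77, 7.09, 8.85, 8.07, 6.58 and 8.86 TPM, and in IL-10 B-KO replicates 1 to 6 it measured 3.0, 8.64, 3.62, 4.30, 4.27 and 3.0. All IL-10 B-KO lungs but replicate 2 were below the lowest IL-10 B-WT lung, which was replicate 1. The mean TPM in IL-10 B-KO was 0.607 times that in IL-10 B-WT. On mean log2(TPM + 1) the difference was -0.66 ± 0.23 (95% interval -1.15 to -0.17). The exact permutation test gave p = 0.0216 and limma an adjusted p of 0.298. Without IL-10 B-KO replicate 2 the log2 fold change was -0.84 and the groups did not overlap, which follows from the choice of that lung and is not comparable with the 2.17% of all genes without overlap on that removal. Without IL-10 B-WT replicate 1 as well it was -0.94 (95% interval -1.32 to -0.57). With array quality weights, which give lungs unlike their group less weight, it was -0.89 with an adjusted p of 0.0208, where 4.42% of all genes had an adjusted p of at most 0.05. Over all alternatives the adjusted p of Pde3a ran from 0.00447 to 0.567 and was at most 0.05 in 2 of 21 other fits, with the log2 fold change short of 1 in all.

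Pde3a is ENSMUSG00000041741 at chr6:141249269-141507448 on the plus strand. Exons of Gm28523, a gene on the opposite strand, share 741 bases with its exons in GENCODE M21. Whether libraries kept strand was not given in the sources used here, and without strand the reads of both genes cannot be told apart there. Gm28523 averaged 3.22 ± 0.975 TPM in control lungs, against 1.79 ± 0.806 in IL-10 B-KO (log2 fold change -0.61, adjusted p = 0.306). It was highest among IL-10 B-KO lungs in replicate 2 (3.26) and lowest among IL-10 B-WT lungs in replicate 1 (2.07), the same lungs as Pde3a.

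Pde3b, the PDE3 gene best known in fat cells and in insulin signaling, was not lower. It lay at 1.53 to 4.13 TPM (median 1.96) in IL-10 B-WT and 1.99 to 3.46 (median 2.29) in IL-10 B-KO, and all 6 IL-10 B-KO lungs were above the IL-10 B-WT median. The log2 fold change was 0.15 ± 0.19 (exact permutation p = 0.407). Over all alternatives it ranged from 0.05 (median centring) to 0.29 (without IL-10 B-WT replicate 2, the lung with 4.13 TPM). Pde3a made up 76.0% ± 8.79 of the summed PDE3 TPM in control lungs, against 61.2% ± 12.5 in IL-10 B-KO. IL-10 B-KO replicates 2 (81.3%), 4 (64.9%) and 5 (66.3%) lay inside the IL-10 B-WT range, and IL-10 B-WT replicates 1 (67.2%) and 2 (63.2%) were the lowest of their group.

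The remaining genes encode enzymes that hydrolyse both nucleotides, and none differed between genotypes beyond the spread between lungs. Pde1a, activated by calcium and calmodulin, lay at 1.07 to 3.04 TPM in IL-10 B-WT and 0.73 to 3.82 in IL-10 B-KO. Its log2 fold change of -0.10 ± 0.25 changed sign in 4 of the alternatives. Pde2a, which cGMP activates through its GAF domains and which endothelial cells express, lay at 0.61 to 6.13 and 0.91 to 5.20 TPM, with a log2 fold change of 0.33 ± 0.36. That value depended on single lungs. It rose to 0.59 when replicate 2 of the control lungs, the one with 6.13 TPM, was left out. Leaving out replicate 3 of either genotype lowered it, to 0.16 (IL-10 B-WT) or 0.17 (IL-10 B-KO). Exons of Pde2a share 3955 bases on the same strand with the annotated gene Gm45837, so that the split of reads between both is uncertain. Gm45837 averaged 5.52 ± 2.15 TPM in control lungs, against 6.78 ± 1.80 in IL-10 B-KO. Pde10a, best known in the striatum, exceeded 1 TPM only in IL-10 B-WT replicate 1 (1.01) and in IL-10 B-KO replicates 3 and 5 (1.58 each), with an exact permutation p of 0.578.

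**Figure D2:**
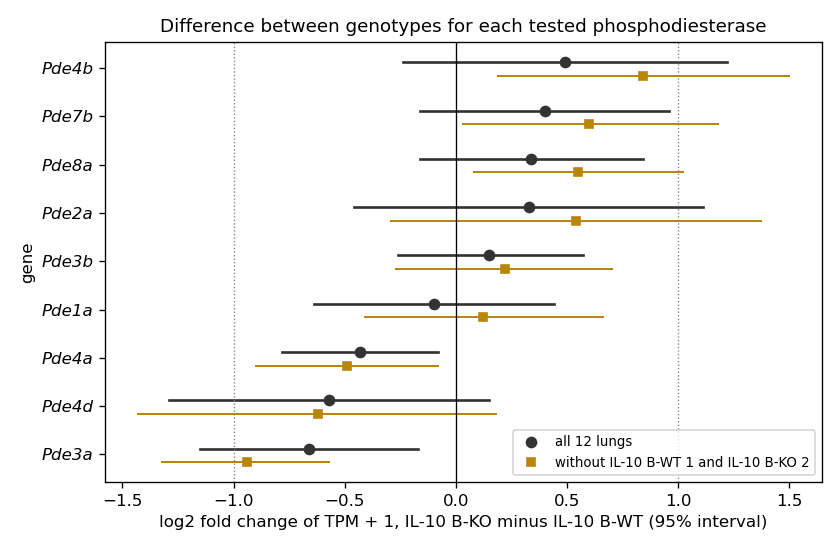
Log2 fold change of TPM + 1 (horizontal axis, IL-10 B-KO minus IL-10 B-WT) with its 95% interval for the 9 phosphodiesterases tested, where black circles are all 12 lungs, yellow squares are the 10 lungs left without IL-10 B-KO replicate 2 and IL-10 B-WT replicate 1, and dotted lines mark the fold threshold of 1 in each direction. With all lungs only the intervals of Pde3a and Pde4a leave out 0, and no estimate reaches the threshold.

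Without the 2 lungs nearer to the other genotype, the number of phosphodiesterases at an unadjusted p of at most 0.05 was 5 (Pde3a, Pde4a, Pde4b, Pde7b and Pde8a), of which Pde3a alone did not overlap between groups. The same removal raised the share of all genes at that mark to 30.9%, the share past the threshold of the study to 9.85% and the share without overlap to 13.3%. None of the 9 passed the threshold of the study on the log2 reading, although the adjusted p of Pde3a was 0.00447, where 15.2% of all genes were at 0.05 or below.

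Other genes of the family gave the setting. All gene lists used here were chosen with earlier results of these data known, so their counts beside shares of all genes are a description and no test. Of 14 further phosphodiesterase genes, 6 were tested (3 higher in IL-10 B-KO, 3 lower, median log2 fold change -0.14) and 1 passed the threshold, beside 0.495% of all genes. Pde5a, which hydrolyses cGMP and is the target of sildenafil, fell from 47.3 ± 17.2 to 12.5 ± 5.31 TPM (log2 fold change -1.86, adjusted p = 0.0201, groups not overlapping, beside 1.02% of all genes). Its adjusted p ran from 0.0128 to 0.0815 over 8 other ways of processing, of which 4 kept the call and 4 (no filter, quantile normalization, median centring, replicate block) did not, with the direction kept in all, and 6 of 12 left-out lungs ended it. Pde8b, the close relative of Pde8a, averaged 18.9 ± 6.18 and 8.12 ± 4.53 TPM (log2 fold change -1.18, exact permutation p = 0.0152, adjusted p = 0.195), opposite in sign to Pde8a. Without the 2 lungs nearer to the other genotype, 3 of the 6 passed the threshold, Pde5a, Pde8b (log2 fold change -1.62, adjusted p = 0.00224, groups not overlapping) and the calmodulin-activated Pde1b (1.21, adjusted p = 0.0397), where 9.85% of all genes did. Pde9a, specific for cGMP, was the most abundant of the 14 with 49.9 and 40.3 TPM. Over the 21 catalytic family members the 10 genes made up 36.7% ± 9.27 of the summed TPM in control lungs, against 50.6% ± 12.3 in IL-10 B-KO. In that sum Pde5a is counted, so that its lower level alone raises the share.

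Adenylyl cyclases make cAMP. Of 10 such genes 8 were tested and none passed the threshold. Means were lower in IL-10 B-KO for 7 and higher for 1, with a median log2 fold change of -0.50, and 5 were at an unadjusted p of at most 0.05 in the lower direction, beside 5.71% of all genes. Adcy8, activated by calcium, measured 9.16 ± 4.24 and 1.75 ± 1.43 TPM (log2 fold change -1.92, exact permutation p = 0.00649). Adcy9 measured 11 ± 2.08 and 7.46 ± 1.48 TPM (exact permutation p = 0.0108) and Adcy2 5.32 ± 0.944 and 3.26 ± 1.32 TPM (exact permutation p = 0.013). Adcy4, the most abundant, lay at 57.4 ± 12.4 and 48.0 ± 11.9 TPM, with overlapping groups.

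The Gs list holds receptors that raise cAMP, the receptor subunit Ramp2 and Gnas, the G protein itself. Of its 12 genes, all tested, 4 had higher and 8 lower means, with a median of -0.15. The adenosine receptors Adora2b (6.02 ± 5.89 and 11.6 ± 4.48 TPM, exact permutation p = 0.0433) and Adora2a (8.28 ± 7.68 and 16.1 ± 9.21, exact permutation p = 0.0779) had higher means in IL-10 B-KO, and the beta1 adrenoceptor Adrb1 a lower mean (29.4 ± 8.78 and 18.2 ± 9.04, exact permutation p = 0.0541). Ramp2, a subunit of the adrenomedullin receptor, was the most abundant, with medians of 972 and 558 TPM. No gene of this list passed the threshold. In Adora2b, IL-10 B-WT replicate 1 (17.54 TPM) was the only control lung above the lowest IL-10 B-KO lung (6.80).

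Downstream of cAMP, 13 of 14 effector genes were tested, 5 higher and 8 lower with a median of -0.10. The regulatory subunit Prkar1b (13.3 ± 1.62 and 9.86 ± 1.99 TPM, exact permutation p = 0.00433), the protein kinase inhibitor Pkia (6.31 ± 1.16 and 4.54 ± 0.585, exact permutation p = 0.0108) and the exchange factor Rapgef4 (12.3 ± 4.53 and 7.98 ± 1.88, exact permutation p = 0.0108) had the smallest limma p, all with lower means in IL-10 B-KO. Pkig was the most abundant with 126 and 143 TPM. Among 11 genes of the CREB family and its cAMP-inducible targets 4 were higher and 7 lower, with a median of -0.13. The 3 at an unadjusted p of at most 0.05 (beside 5.71% of all genes in the lower direction) were the nuclear receptors Nr4a2 (3.55 ± 0.669 and 1.96 ± 0.654 TPM), Nr4a3 (3.28 ± 1.18 and 1.68 ± 1.14) and Nr4a1 (34.6 ± 13.0 and 21.2 ± 11.3), all lower in IL-10 B-KO. Their exact permutation p was 0.00649, 0.039 and 0.0736. The most abundant of that list was the CREB coactivator Crtc2, at 41.5 and 36.3 TPM. None of either list passed the threshold.

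Partners that anchor phosphodiesterases numbered 11, of which 10 were tested, 6 higher and 4 lower with a median of 0.04. Arrb2, which brings PDE4 enzymes to activated receptors, measured 92.0 ± 66.9 and 163 ± 59.0 TPM (exact permutation p = 0.0801), and Rack1, a scaffold that binds a PDE4D isoform, was the most abundant with 708 and 911 TPM. Genes of the cGMP side were counted likewise. Of 9 tested genes for cGMP synthesis and its effectors, 7 were lower and 2 higher with a median of -0.54. Gucy1a1 (67.4 ± 25.4 and 16 ± 8.80 TPM, log2 fold change -2.07) and Gucy1b1 (65.1 ± 25.6 and 20.1 ± 8.42, log2 fold change -1.65), the subunits of the nitric oxide receptor guanylyl cyclase, passed the threshold (adjusted p = 0.0222 and 0.0378), beside 0.495% of all genes. Neither overlapped between groups, beside 1.02% of all genes. Both calls ended with no filter, quantile normalization, median centring or the replicate block (adjusted p up to 0.0929 and 0.116), that of Gucy1b1 also on rescaling without immunoglobulin genes, and leaving out single lungs ended that of Gucy1a1 in 6 of 12 cases and that of Gucy1b1 in 8. The direction was kept in all. The cGMP-dependent kinase Prkg1 averaged 4.77 ± 2.65 and 1.70 ± 0.602 TPM (exact permutation p = 0.00649). Nos3, which makes nitric oxide in endothelium, had the higher mean in IL-10 B-KO (12.3 ± 4.11 and 20.6 ± 8.28, exact permutation p = 0.0476). Npr1, the natriuretic peptide receptor, was the most abundant with 78.3 and 55.6 TPM.

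Whole lung mixes cell types, and in bulk RNA fewer cells of a type and less RNA per cell cannot be told apart. Neutrophil and macrophage markers had higher means in IL-10 B-KO and were highest in the lungs high in Pde4b. All 8 neutrophil markers had higher means in IL-10 B-KO (median log2 fold change 1.72), each at an unadjusted p of at most 0.05 (beside 6.83% of all genes in the higher direction) and none past the threshold. In IL-10 B-WT replicates 1 to 6 their TPM summed to 2537, 459, 1116, 948, 289 and 555, and in IL-10 B-KO replicates 1 to 6 to 1290, 1054, 4488, 2030, 7629 and 5053. The most abundant was S100a9, at 504 and 1880 TPM, in which IL-10 B-WT replicate 1 was likewise the only control lung above the lowest IL-10 B-KO lung. The same 4 lungs, replicates 3, 5 and 6 of IL-10 B-KO with replicate 1 of IL-10 B-WT, were highest in these markers, in Pde4b, in Pde7b and in Pde8a. All 8 monocyte and interstitial macrophage markers had higher means as well (median 1.69), with sums of 2595, 554, 1091, 306, 188 and 541 in IL-10 B-WT and 2245, 441, 3361, 1687, 3405 and 2428 in IL-10 B-KO replicates 1 to 6. Ly6c2 led them with 259 and 680 TPM. None of these markers was at 0 in all lungs. Their part in the values of Pde4b, Pde7b and Pde8a was not tested. Alveolar macrophage markers were 5 of 5 higher (median 0.98), led by Chil3 with 210 and 677 TPM.

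Markers of contractile cells had lower means in IL-10 B-KO, as did Pde3a and Pde4a. All 8 smooth muscle markers had lower means in IL-10 B-KO (median -0.88), led by Acta2 with 212 and 115 TPM, and their sums were 344, 737, 295, 1126, 721 and 730 in IL-10 B-WT and 219, 402, 471, 590, 409 and 130 in IL-10 B-KO replicates 1 to 6. All 9 pericyte markers had lower means (median -1.16). Of these, Notch3 (adjusted p = 0.0236) and Pdgfrb (adjusted p = 0.0456) passed the threshold, which 0.495% of all genes passed. Each lost that call under at least 4 of 8 other ways of processing (adjusted p up to 0.0999 and 0.184). Each call also ended when any of 7 (Notch3) or 10 (Pdgfrb) of the 12 lungs was left out. Pericyte sums were 256, 369, 264, 579, 605 and 650 in IL-10 B-WT and 154, 195, 162, 306, 131 and 85.4 in IL-10 B-KO, with Cox4i2 most abundant at 155 and 58.5 TPM. Neither IL-10 B-KO replicate 2, where Pde3a was highest of its group, nor replicate 1, where Pde4a was, led its group in either sum. IL-10 B-WT replicate 3, lowest of its group in the smooth muscle sum, had 8.85 TPM of Pde3a. IL-10 B-WT replicate 6, highest of its group in the pericyte sum, was also highest in Pde3a (8.86) and Pde4a (8.58). Endothelial markers were 10 of 10 lower (median -0.28), led by Egfl7 with 1120 and 938 TPM. Their sums, 2219, 2676, 4089, 3996, 3933 and 4926 in IL-10 B-WT and 2740, 4253, 2273, 2958, 2763 and 2822 in IL-10 B-KO, were lowest of the IL-10 B-WT lungs in replicate 1 and highest of the IL-10 B-KO lungs in replicate 2, as was Pde3a. The airway club and ciliated sums had the same extremes, with 23216, 49389, 49694, 98728, 28447 and 86600 in IL-10 B-WT and 30110, 104754, 17652, 21298, 8313 and 14842 in IL-10 B-KO, and so did the sums of the Gs list and of the 14 further phosphodiesterases. Platelet markers, 4 higher and 2 lower of 6 (median 0.07), were led by Pf4 with 60.0 and 82.9 TPM. The part of these cells in the values of Pde3a and Pde4a was not tested.

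IL-10 B-WT replicate 5, the lung with 22.5 TPM of Pde4d, was also among the highest in heart and fat transcripts. Pulmonary vein cardiomyocyte markers summed to 135, 755, 79.3, 1876, 1351 and 285 TPM in IL-10 B-WT and 507, 126, 196, 429, 211 and 31.8 in IL-10 B-KO replicates 1 to 6. All 9 had lower means in IL-10 B-KO (median -1.19), led by Myh6 with 163 and 59.7 TPM. Adipocyte markers summed to 10, 79.9, 4.6, 419, 500 and 128 TPM in IL-10 B-WT and 75.6, 23.3, 21.4, 78.7, 9.60 and 11.1 in IL-10 B-KO, led by Cfd with 151 and 26.6 TPM. IL-10 B-WT replicate 4, with the highest cardiomyocyte sum, had only 6.29 TPM of Pde4d. The part of these tissues in the Pde4d value was not tested. Of the other lists, alveolar type 2 markers were 8 of 8 higher (median 0.85, Sftpc most abundant), alveolar type 1 markers 4 of 6 lower (median -0.13, led by Ager), airway club and ciliated markers 7 of 8 lower (median -0.53, led by Scgb1a1), fibroblast markers 5 of 9 lower (median -0.17, led by Inmt) and T cell markers 3 of 6 lower (median -0.05, led by Cd2). The 9 B cell markers had a median of -1.90 and Cd79b as the most abundant, with 56.2 and 12.3 TPM.

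Genes with the pattern most like each phosphodiesterase were sought by Pearson r over the 12 lungs after subtraction of each genotype's mean, among 11169 tested genes with a mean of at least 5 TPM, as a description with no test. Lungs share a total of TPM in this measure, so that cell mixture and library makeup enter it. Pde4b was most like Cdk6 (r = 0.985), a cell cycle kinase, and Ero1a (0.974) and Bnip3 (0.961), which hypoxia induces. Pde3a was most like Ctnnd1 (0.948), the catenin that stabilises cadherins at cell junctions, followed by Ncald (0.944) and Sema6d (0.937). Pde8a was most like Mocos (0.978), Lims1 (0.972) and Api5 (0.970), and Pde7b like Ing1 (0.973), 9130401M01Rik (0.970) and Tor4a (0.969). Pde1a followed Fam20a (0.949), Osr1 (0.941) and the collagen gene Col6a2 (0.941). Pde4a was most like 4933439C10Rik (0.933), Atpaf1 (0.920) and Ccdc189 (0.911), and Pde3b like Slc15a4 (0.919), Lbh (0.900) and Fam78a (0.890). Pde2a was most like Gfra2 (0.913), Rrad (0.892) and Tmem158 (0.890). Pde4d, which had a single high lung, was most like Det1 (0.926), then Hspb6 (0.768) and Fam220a (0.735).

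Since some phosphodiesterase genes are known targets of CREB, the factor that cAMP activates, promoters were searched for the cAMP response element. RefSeq promoter windows of 300 bases (250 before to 50 after a transcription start, GRCm38.p6) were given for 8 of the 10 genes, 21 windows in all, and not for Pde3a and Pde3b. The full element, TGACGTCA, which reads the same on both strands and contains the short form on each, was in none of the 21 windows and in 1.79% of all 32851 windows. The short form, TGACG or CGTCA on the opposite strand, was in 5 of 21 windows (23.8%), beside 20.8% of all windows. These 5 belonged to Pde1a, Pde2a, Pde4a, Pde4b and Pde8a. Windows ranged from 39.7% (Pde4d) to 71.3% (Pde10a) G and C. The 250 bases before the start are printed for Pde4a, Pde4b and Pde8a, at chr9:21183851-21184100, chr4:102421305-102421554 and chr7:81213015-81213264, all on the plus strand and 5′ to 3′, with the short form in capitals. These genes have the short form upstream of a start and an unadjusted limma p of at most 0.05 without the 2 lungs nearer to the other genotype. That mark only chose what is printed and is no test, since 30.9% of all genes met it and the removal pulls the groups apart by construction. The starts of Pde4a and Pde4b shown are internal to the gene and not the only ones annotated. The match began at position -50 in Pde4a, -34 in Pde4b and -84 in Pde8a, counting the base before the start as -1. Pde1a also has it upstream, at -166, but met no such mark and is not printed. A match is a description of letters and not a binding site.
Pde4a: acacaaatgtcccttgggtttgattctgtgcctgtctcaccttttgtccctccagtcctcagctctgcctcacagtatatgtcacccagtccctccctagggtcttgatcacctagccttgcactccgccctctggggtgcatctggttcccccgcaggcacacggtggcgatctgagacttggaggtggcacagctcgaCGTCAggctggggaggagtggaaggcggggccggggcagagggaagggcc
Pde4b: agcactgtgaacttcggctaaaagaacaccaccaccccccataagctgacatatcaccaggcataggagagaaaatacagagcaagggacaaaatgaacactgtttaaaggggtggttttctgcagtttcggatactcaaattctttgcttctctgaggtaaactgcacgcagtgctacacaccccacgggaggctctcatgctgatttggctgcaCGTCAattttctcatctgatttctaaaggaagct
Pde8a: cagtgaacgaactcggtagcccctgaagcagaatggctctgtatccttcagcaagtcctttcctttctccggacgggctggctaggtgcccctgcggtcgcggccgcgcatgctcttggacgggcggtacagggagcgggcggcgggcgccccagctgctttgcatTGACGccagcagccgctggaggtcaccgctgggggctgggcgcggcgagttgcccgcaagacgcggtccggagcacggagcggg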

How the data were processed

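Whole-lung total RNA of 12 LPS-exposed mice was sequenced, and the authors deposited 1 table of TPM per gene, rounded to 2 decimals, with 1 column per lung and no pooling. The submitters' processing notes name fastp, HISAT, RSEM and GRCm38.p5, without versions, and the annotation release and strandedness are not given in the sources used here. TPM keep no depth, so that precision rests on the spread between lungs, and all values of a lung share a fixed total. Columns were assigned to lungs through their names.

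Genotypes were compared by limma 3.58.1 (R 4.3.3; lmFit, then eBayes with trend) on log2(TPM + 1), with no covariate and with Benjamini-Hochberg adjustment over 15148 genes. Exact permutation tests were two-sided on mean log2(TPM + 1). Coordinates came from GENCODE M21 on GRCm38, whose chromosomes the patches p5 and p6 leave unchanged, matched by gene ID, and promoters from RefSeq. Other steps used Python 3.11.15, NumPy 2.4.6 and pandas 2.3.3. The 10 genes and the lists were chosen with earlier results of these data known. Named from each list were at most 4 genes by smallest p and the most abundant gene, and for each phosphodiesterase with a mean of at least 1 TPM the 3 genes most alike. Other settings tried were quantile normalization, centring on library medians, rescaling after immunoglobulin genes were removed, a pseudocount of 0.1, filters of none or a mean of 5 TPM, array quality weights, a replicate block, omission of each lung and, chosen after seeing the data, of 2 lungs together, and adjusted p alone as the threshold.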

Additional observations from a re-analysis of the deposited data

Results flagged for a closer look

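In 5 of 20 groups of 6 lungs (10 genes in 2 genotypes), a lung lay farther from its nearest neighbour than Dixon's 95% limit, a fraction of the group's range. Over all genes tested, 11.1% of such groups had such a lung. The 20 groups include those of Pde10a, which was not among the genes tested. Pde4d was at 22.5 TPM in IL-10 B-WT replicate 5, a gap of 0.877 of the range. Pde3a was at 8.64 TPM in IL-10 B-KO replicate 2 (0.770) and Pde8a at 18.0 TPM in IL-10 B-WT replicate 1 (0.665), the lungs nearer to the other genotype. IL-10 B-WT replicate 2, the lung with the largest immunoglobulin share, was highest in Pde2a with 6.13 TPM (0.717) and in Pde3b with 4.13 TPM (0.692).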

How the results depend on the processing

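Under 22 alternatives the count of phosphodiesterases past the threshold of the study stayed at 0. These used its log2 reading, or adjusted p alone in the main fit. By adjusted p alone in the other fits, Pde3a passed with array quality weights and without both lungs nearer to the other genotype. The direction of every tested gene but Pde1a was kept. In 181 of 185 values for single genes direction and side of the threshold held. Pde1a, at -0.10 on the log2 scale, went to 0.03 with array quality weights and ranged from -0.28 to 0.12 with lungs left out. Before adjustment, 2 of the genes had a p of at most 0.05 with all lungs. That count was 3 with quantile normalization and ranged from 1 (without IL-10 B-WT replicate 6, where Pde4a was lost) to 5 (without both lungs nearer to the other genotype). The count of genes without overlap ranged from 0 to 1, being 1 without IL-10 B-KO replicate 1 (Pde4a), without replicate 2 or without both lungs (Pde3a), as the choice of these lungs fixes. Of all genes, 75 passed the threshold. That count was 318 with array quality weights, 6 with no filter, 27 without immunoglobulin genes, 36 with median centring and 40 with quantile normalization, and ranged from 19 to 1492 with lungs left out. With the replicate number as a block it was 45. The block changed no call on the 9 genes. Same-numbered lungs did not deviate together (r from -0.292 to 0.046, and 0 of 6 IL-10 B-WT lungs correlated best with their own number), so that they share only a number. The cause of these changes was not tested. With a mean TPM of at least 5 only 5 of the genes were tested. Without read counts, no detection limit can be given for genes near 1 TPM, such as Pde1a and Pde10a.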
